A study of Mus musculus with 6 samples.

Results

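Vessel genes were followed in the thymus of Rag2/pfp knockout and wild-type mice. The set held 36 genes of blood and lymphatic endothelium, and its members were all array probes whose annotated gene symbol was one of the 36. Probes carried 34 of these genes (51 probes) out of 16593 genes on the array, and Cldn5 and Mmrn1 had no probe in the annotation used. Of the 34, 30 had a probe that could be tested. Flt4, Efnb2, Sele and Prox1 were too close to background.

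Thymus RNA of 3 Rag2/pfp knockout and 3 wild-type samples was measured in a single colour on Illumina MouseRef-8 bead arrays of version 2, 1 array per sample. Rag2 is part of the recombinase with which lymphocytes assemble antigen receptor genes, and pfp stands for Prf1, which encodes perforin, the pore-forming protein of killer lymphocytes. The knockout is labelled by both genes with no further detail of the alleles, the wild-type group carries no named allele, and no treatment is given for either. The sources used here name no age, sex or strain. Xist, transcribed from the inactive X chromosome of female cells, read 9.40, 8.80 and 5.02 in the knockout against 9.16, 4.90 and 9.37 in the wild type, so knockout 3 and wild type 2 stood apart and the same-numbered samples 2 and 3 differed in it. Nothing in the labels tells whether each sample was a separate animal, so p-values reflect the spread among these samples, part of which may be technical.

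Endothelial cells line the vessels. In the thymus they form the arteries, capillaries and venules through which progenitors enter and mature T cells leave, and a smaller lymphatic network. Vascular endothelial growth factors act on the receptor tyrosine kinases Flt1, Kdr and Flt4, and angiopoietins act on Tek, for which Tie1 is a partner. The adherens junction protein Cdh5, the adhesion molecule Pecam1 and the transcription factors Sox7, Sox17 and Sox18 are widely used to identify endothelium. In the lymphatic branch, Prox1 is the master regulator and Lyve1 a hyaluronan receptor of the surface.

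The receptor kinase genes Flt1, Tek and Tie1 ran together across the arrays (values below), so the 250 bases upstream of their annotated starts are shown here from RefSeq (GRCm38.p6), 5′ to 3′ on the strand of the gene. Capitals mark matches to the 7-letter string CNGGAAG, a form of the binding site of ETS transcription factors, or to its reverse complement CTTCCNG.
Flt1 (chr5:147726012-147726261, minus strand): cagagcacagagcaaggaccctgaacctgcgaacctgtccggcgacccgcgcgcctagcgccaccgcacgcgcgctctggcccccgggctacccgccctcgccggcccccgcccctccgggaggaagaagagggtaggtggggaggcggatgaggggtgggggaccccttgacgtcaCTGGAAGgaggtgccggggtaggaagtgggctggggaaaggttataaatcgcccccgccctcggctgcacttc
Tek (chr4:94739039-94739288, plus strand): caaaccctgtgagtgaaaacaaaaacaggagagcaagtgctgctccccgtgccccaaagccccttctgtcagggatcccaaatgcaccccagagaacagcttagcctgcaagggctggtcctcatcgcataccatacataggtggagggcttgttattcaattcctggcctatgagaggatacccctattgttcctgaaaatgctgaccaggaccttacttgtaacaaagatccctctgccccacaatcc
Tie1 (chr4:118489850-118490099, minus strand): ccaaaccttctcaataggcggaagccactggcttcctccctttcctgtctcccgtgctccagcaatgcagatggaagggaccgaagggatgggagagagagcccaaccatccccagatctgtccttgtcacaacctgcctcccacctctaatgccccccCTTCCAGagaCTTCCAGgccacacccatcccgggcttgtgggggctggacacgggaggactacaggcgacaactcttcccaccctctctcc
The string occurred 1 time upstream of Flt1, 2 times upstream of Tie1 and 0 times upstream of Tek. It was present in 10 of the 27 windows that the table holds for 21 of the 36 genes (37.0%), and in 26.6% of all 32851 windows of this length. A match is a description of the letters only.

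Between 13729 and 13878 of the 25697 probes on each array had a detection p under 0.05, and the arrays had median signals of 172 to 186 units. Levels below are log2 signals after background correction and quantile normalization, and differences are knockout minus wild type on that log2 scale. A probe was tested if it was detected on at least 3 of the 6 arrays, the test was limma's moderated test over all 14097 such probes, and a gene was called at a Benjamini-Hochberg adjusted p under 0.05. The Rag2 probe (ILMN_1245983) read 6.98, 6.73 and 7.88 on knockout arrays 1 to 3 and 9.17, 8.17 and 8.78 on wild-type arrays 1 to 3 (limma adjusted p = 0.0579). For Prf1 the brighter probe (ILMN_2960700) gave 9.62, 9.59 and 9.61 against 10.46, 9.90 and 10.38 (limma adjusted p = 0.0866). Whether these probes lie inside the deleted parts was not examined. Knockout 2 and wild type 2, and to a smaller extent knockout 1, stood apart by transcripts of heart muscle and fat, which are described with the vessel genes below.

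Among the 30 tested vessel genes, 1 was called: Icam2 fell in the knockout. None rose, and at an unadjusted p under 0.05 the limma counts were also 0 higher and 1 lower. Over all 9849 genes tested, 5.57% were called lower and 6.09% higher, 11.7% in all, and 14.2% and 14.3% at an unadjusted p under 0.05. With the replicate number as a block, which assumes that same-numbered samples are pairs, limma called 5 of the 30: Aqp1, Emcn, Sox17 and Tek rose and Icam2 fell. That fit called 24.2% of all genes, 12.4% higher and 11.8% lower. The groups did not overlap for 1 of the 30 (3.33%), against 34.2% of all tested genes. The median difference of the 30 was 0.69, beside 0.01 for all tested genes, and 24 of the 30 differences were above 0 (50.8% of all genes). That median moved with single arrays, to 0.15 without knockout 2, 0.34 without wild type 1, 1.17 without knockout 3 and 1.22 without wild type 2. Their median SE was 0.66, beside 0.23 for all genes, and the differences of most vessel genes were small beside the spread between arrays of 1 genotype. The differences ranged from −1.09 for Icam2 to 1.39 for Sox17. Because the tissue was measured in bulk, fewer cells of a type and less RNA per cell cannot be told apart.

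**Figure D1:**
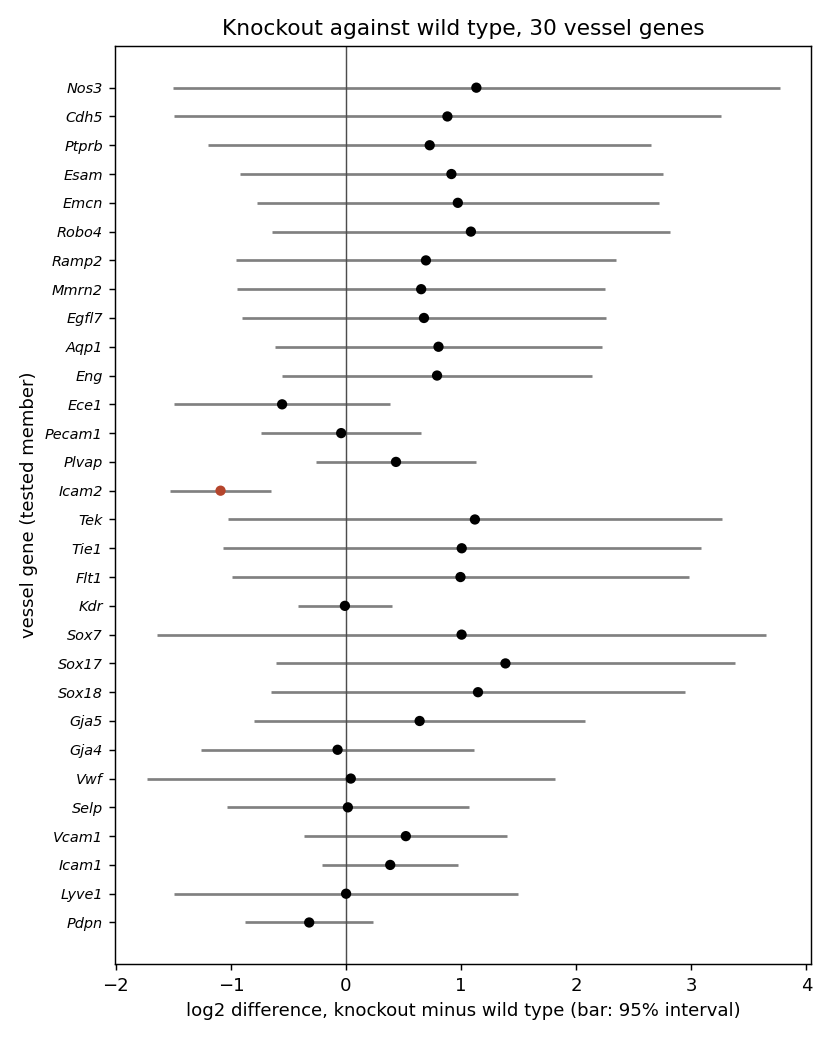
Log2 difference between knockout and wild type (x axis) for each of the 30 tested vessel genes (y axis), with points for the limma estimate and bars for its 95% interval; the red point passed the adjusted threshold. Only the Icam2 interval, from −1.53 to −0.65, excludes 0, and most other points lie to the right of 0 with intervals that span it.

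Icam2 encodes an adhesion molecule of the immunoglobulin family that endothelial cells, lymphocytes and platelets carry and that binds the leukocyte integrin LFA-1. Its probe (ILMN_2618408) read 11.01, 11.44 and 11.02 on the knockout arrays against 12.32, 12.10 and 12.32 on the wild-type arrays. Every wild-type array was above every knockout array. Means were 11.16 ± 0.25 (SD, n = 3) for the knockout against 12.25 ± 0.13 (SD, n = 3) for the wild type, and the difference was −1.09 (SE 0.18, 95% interval −1.53 to −0.65, limma adjusted p = 0.0194), or 2.13-fold lower. Without replicate 2 of both genotypes the difference was −1.31 (limma adjusted p = 0.00529), where 29.2% of all genes were called. The call was lost without knockout 1, knockout 3, wild type 1 or wild type 3. There the difference was −1.02, −1.02, −1.05 and −1.05 and the limma adjusted p was 0.0960, 0.0612, 0.0927 and 0.0986. Those fits called 1.63%, 5.26%, 1.83% and 1.60% of all genes, beside 11.7% with all arrays. Genes of double-positive thymocytes, which are lymphocytes, moved the same way: 5 of 6 tested list members were called lower, beside 5.57% of all genes. Among the 5 was Cd4, which was detected on 1 knockout array and passed the filter through the wild type, so its call supports nothing. The mean level of the 6 was 8.06 to 8.89 on the knockout arrays and 11.82 to 12.37 on the wild-type arrays. The part of thymocytes in the Icam2 difference was not tested.

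The other surface and junction genes of endothelium showed one shared course over the arrays. Aqp1, a water channel of capillary endothelium and red cells and the member of this group with the highest mean, read 12.30, 13.47 and 11.55 in the knockout against 11.17, 12.53 and 11.20 in the wild type. Replicate 2 was the highest array of each genotype, knockout 1 came next, and the groups overlapped. The difference was 0.80 (SE 0.59, limma adjusted p = 0.429), and the other Aqp1 probes differed by 0.72 and 0.58. The junction gene Cdh5 read 8.41, 10.32 and 7.39 against 6.73, 9.54 and 7.20. Its levels spanned from 6.73 to 10.32, and the difference of 0.88 (SE 0.98) was smaller than the within-group SD of 1.50. Nos3, the endothelial nitric oxide synthase, read 8.43, 10.21 and 7.29 against 6.13, 9.59 and 6.82. It had the widest spread of this group (within-group SD 1.66), and its 3 probes differed by 1.13, 0.93 and 0.87, with SEs of 1.09, 1.01 and 1.02. Esam, an adhesion molecule of tight junctions, Emcn, a sialomucin of capillaries and veins, and Robo4, a guidance receptor that stabilises vessels, had differences of 0.92 (SE 0.76), 0.97 (SE 0.72) and 1.09 (SE 0.72). The secreted factor gene Egfl7 and the endothelial matrix glycoprotein gene Mmrn2 differed by 0.68 (SE 0.65) and 0.65 (SE 0.66). The other Egfl7 probes disagreed, at 0.84 (SE 0.70) and, for one near background, −0.07 (SE 0.18). The receptor phosphatase gene Ptprb differed by 0.73 (SE 0.80), the transforming growth factor co-receptor gene Eng by 0.79 (SE 0.56) and Plvap, which builds the diaphragms of fenestrated endothelium, by 0.43 (SE 0.29). None of these passed (limma adjusted p from 0.381 to 0.614). With the replicate number as a block, Aqp1 (limma adjusted p = 0.0473) and Emcn (limma adjusted p = 0.0442) passed.

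A few genes of this group did not share the positive differences. Pecam1, which platelets and leukocytes carry too, read 10.67, 11.35 and 10.29 in the knockout against 10.72, 10.98 and 10.73 in the wild type. Its difference was −0.04 (SE 0.29) with a 95% interval from −0.74 to 0.65, and its other probe differed by −0.11 (SE 0.24). Ece1, the endothelin-converting enzyme, read 10.44, 11.49 and 9.96 against 11.11, 11.34 and 11.12. Knockout 2 was above every wild-type array while knockout 1 and 3 were below them, and the difference was −0.55 (SE 0.39, limma adjusted p = 0.410). A dimmer Ece1 probe differed by −0.29 (SE 0.39). Leaving out knockout 2 separates the Ece1 groups by itself, so the calls without it support nothing. Without knockout 2 the Ece1 difference was −0.99 (limma adjusted p = 0.0461), and without replicate 2 of both genotypes it was −0.91 (limma adjusted p = 0.0350). Without these 2 arrays limma called Icam2 and Ece1 among the 30 (0 higher and 2 lower), where 29.2% of all genes were called, 15.2% higher and 14.0% lower, and the median difference of the 30 was 0.63.

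Of the receptor kinases, Flt1, Tek and Tie1 ordered the 6 arrays in the same way, and none passed without a block. Flt1, the receptor of vascular endothelial growth factor A and of placental growth factor, read 10.75, 12.03 and 9.54 in the knockout against 8.92, 11.21 and 9.21 in the wild type. Wild type 2 lay above knockout 1 and 3, so the groups overlapped, and the difference was 0.99 (SE 0.82, limma adjusted p = 0.490). Tek read 9.01, 10.95 and 8.33 against 7.29, 9.83 and 7.80, a difference of 1.12 (SE 0.89, limma adjusted p = 0.470, and 0.0406 with the replicate block). For Tie1 the values were 7.34, 9.24 and 6.90 against 5.70, 8.34 and 6.43, a difference of 1.01 (SE 0.86, limma adjusted p = 0.503). Kdr, the main signalling receptor of vascular endothelial growth factor A, was detected on all 6 arrays, but its only probe lay close to background, with deposited signals from 169 to 188 units. It stayed between 5.53 and 5.94 and did not follow the other receptors (difference −0.01, SE 0.17, 95% interval −0.42 to 0.40). The brighter probe of Flt4, the receptor of the lymphatic growth factors, was detected on 1 of 3 arrays in each genotype and was not tested.

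The SoxF transcription factor genes Sox7, Sox17 and Sox18, which specify endothelial and arterial fate, had the highest median difference of the role groups (1.15, all 3 above 0), and none was called without a block. Sox18 read 8.53, 9.98 and 8.18 in the knockout against 6.58, 9.10 and 7.56 in the wild type (difference 1.15, SE 0.74, limma adjusted p = 0.373). Only wild type 2 overlapped the knockout arrays. Sox17 read 7.03, 9.02 and 6.30 against 5.74, 7.27 and 5.18, a difference of 1.39 (SE 0.83, limma adjusted p = 0.334, and 0.0112 with the replicate block), with detection on 2 of the wild-type arrays. Its dimmer probe differed by 1.08 (SE 0.61) and was above background on 3 knockout arrays and on 1 wild-type array. Sox7 had the widest within-group SD of all 30 genes (1.67) and differed by 1.00 (SE 1.09), while its dimmer probe differed by 0.76 (SE 1.01).

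The arterial connexin genes gave smaller differences. Gja4 read 7.32, 8.60 and 7.07 in the knockout against 7.29, 8.44 and 7.47 in the wild type, so that replicate 2 was high in each genotype and the means almost coincided (difference −0.07, SE 0.49, 95% interval −1.26 to 1.12). Gja5 differed by 0.64 (SE 0.59, limma adjusted p = 0.542), and its dimmer tested probe by 0.33 (SE 0.66). The probe of Efnb2, an arterial ephrin, was above background on 1 of 3 knockout arrays and on no wild-type array, with signals from 149 to 171 units against 134 to 142 units, and was not tested.

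Adhesion genes of activated and resting endothelium split into 2 courses. Vcam1 and Icam1, integrin ligands that stromal cells, macrophages and epithelium can carry as well, were lowest on wild type 2. Vcam1 read 13.60, 13.17 and 13.79 in the knockout against 13.56, 12.26 and 13.19 in the wild type (difference 0.52, SE 0.36, limma adjusted p = 0.410). Icam1 read 11.59, 11.20 and 11.56 against 11.24, 10.62 and 11.35 (difference 0.38, SE 0.25, limma adjusted p = 0.367). In both genes knockout 2 was the lowest knockout array, the reverse of the junction genes. Genes of cortical thymic epithelium and of double-positive thymocytes had their lowest mean level on replicate 2 of each genotype too. Of 7 tested genes of the epithelium, 6 were called higher, beside 6.09% of all genes. Among the 6 was Foxn1, which was detected on no wild-type array and passed the filter through the knockout alone. The mean level of the 7 was 10.97, 10.59 and 11.17 on the knockout arrays against 9.13, 8.38 and 9.21 on the wild-type arrays. The part of epithelium or thymocytes in the adhesion levels was not tested. Vwf, the platelet-binding factor of endothelium and platelets, read 9.66, 11.23 and 8.21 against 9.32, 10.10 and 9.56. It spread widely in the knockout and differed by 0.04 (SE 0.73, 95% interval −1.73 to 1.81). Selp, a selectin stored with Vwf, differed by 0.02 (SE 0.43, 95% interval −1.03 to 1.07). Sele, the selectin of inflamed endothelium, was above background on none of the 6 arrays.

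**Figure D2:**
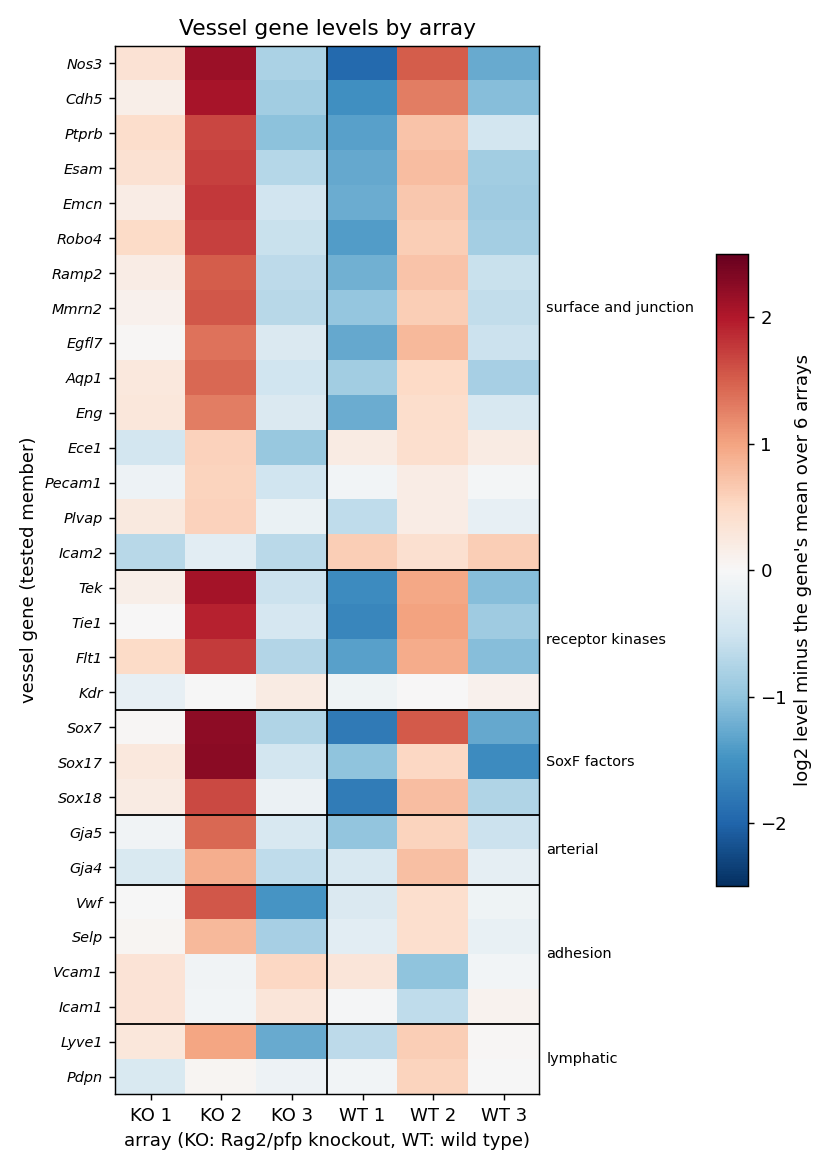
Log2 level of each tested vessel gene (rows, grouped by role) on each array (columns, KO for knockout and WT for wild type), minus the gene's mean over the 6 arrays, with red for higher and blue for lower. Knockout 2 and wild type 2 are the red columns for most genes, whereas Icam2 separates the genotypes and Vcam1 and Icam1 are lowest on wild type 2.

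Neither of the 2 tested lymphatic genes was called. Pdpn, a mucin-type protein of lymphatic endothelium that thymic epithelium and fibroblastic stroma also carry, read 9.97, 10.39 and 10.22 in the knockout against 10.28, 10.92 and 10.35 in the wild type. The ranges overlapped and the difference was −0.32 (SE 0.23, limma adjusted p = 0.422). Lyve1 read 6.53, 7.24 and 4.99 against 5.61, 6.87 and 6.28 and was above background on 2 of 3 knockout arrays and on 3 of 3 wild-type arrays. Its means coincided at 6.25, with an SE of the difference of 0.62 and a 95% interval from −1.49 to 1.49. The brighter Prox1 probe had signals of 142, 206 and 137 units in the knockout and 138, 219 and 165 units in the wild type. It was above background on 1 array of each genotype and was not tested.

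The course over the arrays was shared by most members. Replicate 2 was the highest array in both genotypes for 26 of the 30 vessel genes (86.7%), beside 23.2% of all tested genes. The exceptions were Icam2, Icam1, Vcam1 and Kdr. Knockout 3 was the lowest knockout array for 25 genes (83.3%, beside 27.3%), and wild type 1 the lowest wild-type array for 26 (86.7%, beside 24.6%). The within-group SD exceeded 0.76, the 90th percentile of all genes, for 20 of the 30 genes (66.7%, beside 10.0%). The mean level of the 30 genes was 9.47, 10.61 and 8.84 on the knockout arrays against 8.52, 9.95 and 8.86 on the wild-type arrays. Wild type 2 thus lay above knockout 1 and 3, and the range over arrays of 1 genotype was wider than the distance between the genotype means.

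Genes of other tissues were high on the same arrays. The mean level of 8 tested heart muscle genes was 10.72, 12.57 and 5.72 on the knockout arrays against 5.65, 12.50 and 7.40 on the wild-type arrays. Their summed normalized signal ranged from 2359 to 81993 units in the knockout and from 692 to 74351 units in the wild type. The brighter probes of Myh6 and Actc1, a myosin and an actin of heart muscle, were above background on 2 arrays of each genotype. The mean level of 7 tested fat genes was 11.80, 12.59 and 8.41 against 8.81, 12.37 and 9.98, and their summed signal ranged from 15042 to 117730 units in the knockout and from 9508 to 97400 units in the wild type. For 9 tested fibroblast genes the mean level was 8.98, 10.81 and 8.45 against 8.15, 9.90 and 8.17, and for 3 tested red cell genes it was 9.90, 12.43 and 9.78 against 9.07, 11.45 and 9.74. Knockout 2 and wild type 2 were the highest arrays of their genotype in each of these lists. The part of heart, fat, connective tissue or blood in the vessel gene levels was not tested.

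**Figure D3:**
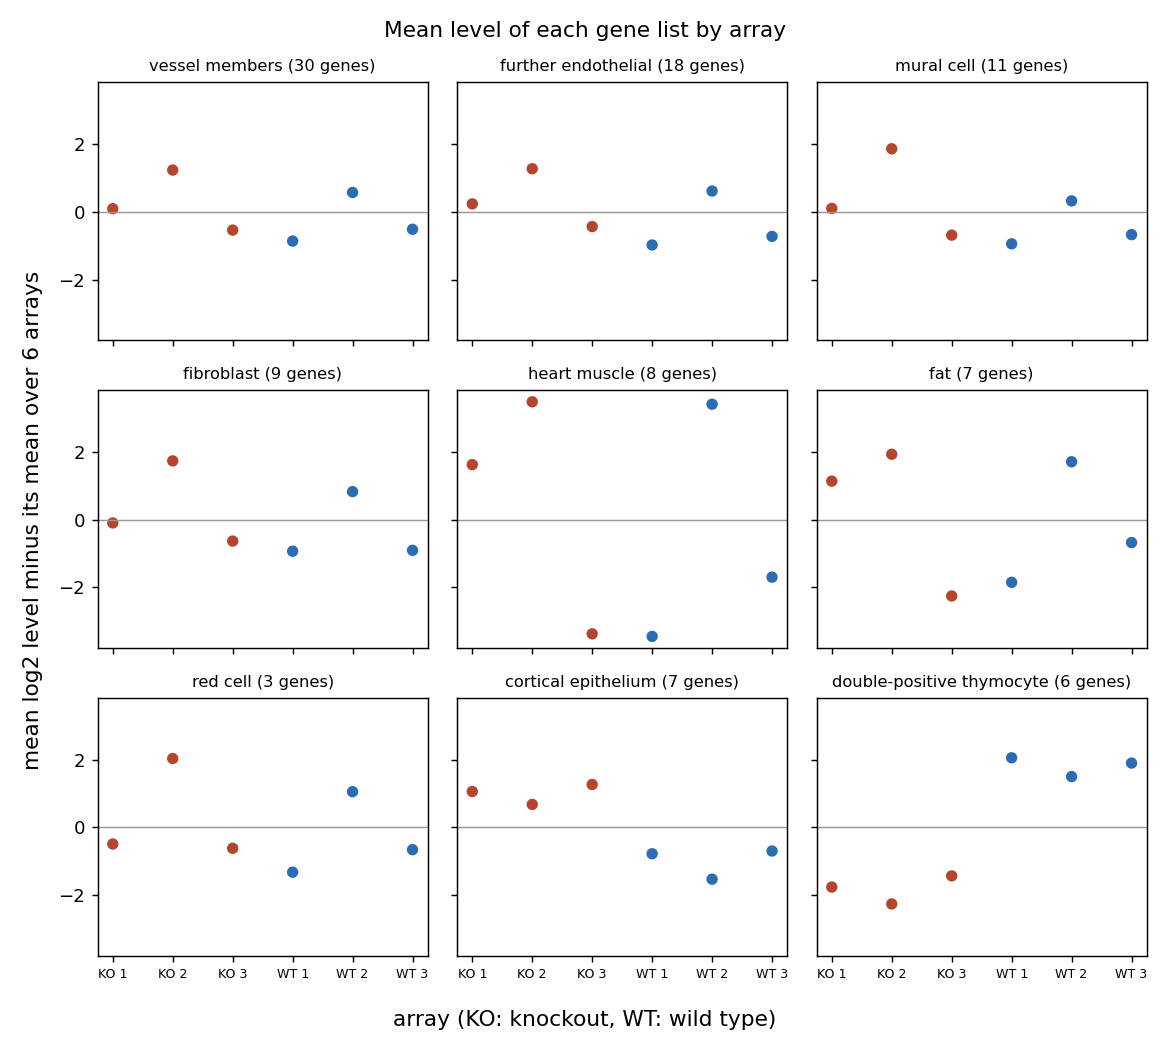
Mean log2 level of each gene list (y axis, minus its mean over the 6 arrays) on each array (x axis, KO for knockout and WT for wild type), 1 point per array. Vessel, further endothelial, mural, fibroblast, heart muscle, fat and red cell lists are highest on array 2 of each genotype, while the cortical epithelium and double-positive thymocyte lists separate the genotypes.

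Further endothelial genes formed a list of 25 outside the 36. Of 18 tested, limma called none (0 higher and 0 lower also at an unadjusted p under 0.05), where 11.7% of all genes were called. The median difference was 0.84. The median was 0.19 without knockout 2, 0.38 without wild type 1, 0.46 without wild type 3, 1.26 without knockout 3 and 1.33 without wild type 2, and 0.47 without background correction or without the detection filter. Nrp1, a co-receptor of vascular endothelial growth factors, differed by 0.13 (SE 0.58), and Cav1, the coat protein of caveolae, by 0.72 (SE 1.07). With the replicate number as a block 5 of the 18 were called higher (Aplnr, Cd34, Notch4, Rasip1 and Tal1), where 12.4% of all genes were. Without replicate 2 of both genotypes 6 of the 18 were called higher (Aplnr, Cd34, Jam2, Notch4, Tal1 and Thbd), where 15.2% of all genes were. Without wild type 2 alone 2 were called higher (Aplnr and Thbd), where 7.44% of all genes were. For every gene called in these left-out fits, wild type 2 was the only wild-type array that overlapped the knockout. Leaving it out separates their groups by itself, so these calls support nothing. Thbd, Jam2 and Tal1 were above background on 3 knockout arrays and on 1 wild-type array, so they passed the detection filter through the knockout and their calls support nothing. These genes were named after their values were seen.

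Among 11 tested growth factor and ligand genes of the vessel wall, 2 rose in the knockout and none fell. Over all genes 6.09% were called higher and 5.57% lower. The median difference of the 11 was 0.65. Leaving out wild type 2 gave a median of 1.06, leaving out knockout 2 gave 0.21 and leaving out wild type 1 gave 0.39, while it was 0.40 without background correction. The block gave 4 higher (Adm, Angpt1, Bmp4 and Vegfc), where 12.4% of all genes were called higher. Angpt1, the activating ligand of Tek, read 8.70, 8.64 and 8.74 in the knockout against 7.23, 8.09 and 7.06 in the wild type. The knockout arrays lay close together and above every wild-type array. The mean was 8.69 ± 0.05 (SD, n = 3) against 7.46 ± 0.55 (SD, n = 3), a difference of 1.23 (SE 0.29, limma adjusted p = 0.0449), or 2.35-fold. Angpt1 passed in 1 of 6 fits that left out 1 array, without wild type 2 (1.55, limma adjusted p = 0.00794), and its adjusted p in the other 5 was 0.0826 to 0.162. Adm, the vasoactive peptide adrenomedullin, whose receptor needs the member Ramp2, had means of 6.91 ± 0.11 (SD, n = 3) and 5.98 ± 0.14 (SD, n = 3). Again the groups did not overlap, and the difference was 0.93 (SE 0.15, limma adjusted p = 0.0188), or 1.91-fold. Without background correction the Adm difference was 0.39 (limma adjusted p = 0.0459), and leaving out wild type 1, wild type 3 or knockout 1 ended the call (limma adjusted p 0.0927, 0.101 and 0.0970). Those left-out fits called 0.883%, 0.751% and 0.670% of all genes higher, beside 6.09% with all arrays. Ramp2 itself read 10.49, 11.82 and 9.67 against 9.12, 11.02 and 9.76 and followed the junction genes (difference 0.69, SE 0.68, limma adjusted p = 0.566). Vegfa, the main ligand of Flt1 and Kdr, read 9.80, 10.67 and 9.76 in the knockout against 8.23, 10.46 and 8.39 in the wild type. Wild type 2 alone overlapped the knockout arrays, and the difference was 1.05 (SE 0.63, limma adjusted p = 0.339). Without wild type 2 it was 1.77 (limma adjusted p = 0.0275), where 7.44% of all genes were called higher. Without replicate 2 of both genotypes it was 1.47 (limma adjusted p = 0.00529), where 15.2% were. Removing the only overlapping array separates the groups by itself, so these calls support nothing. Vegfa passed in 1 of 6 fits that left out 1 array. Over these fits its difference was as low as 0.65 and its limma adjusted p as high as 0.697. Vegfb, a ligand of Flt1, differed by 0.56 (SE 0.56).

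**Figure D4:**
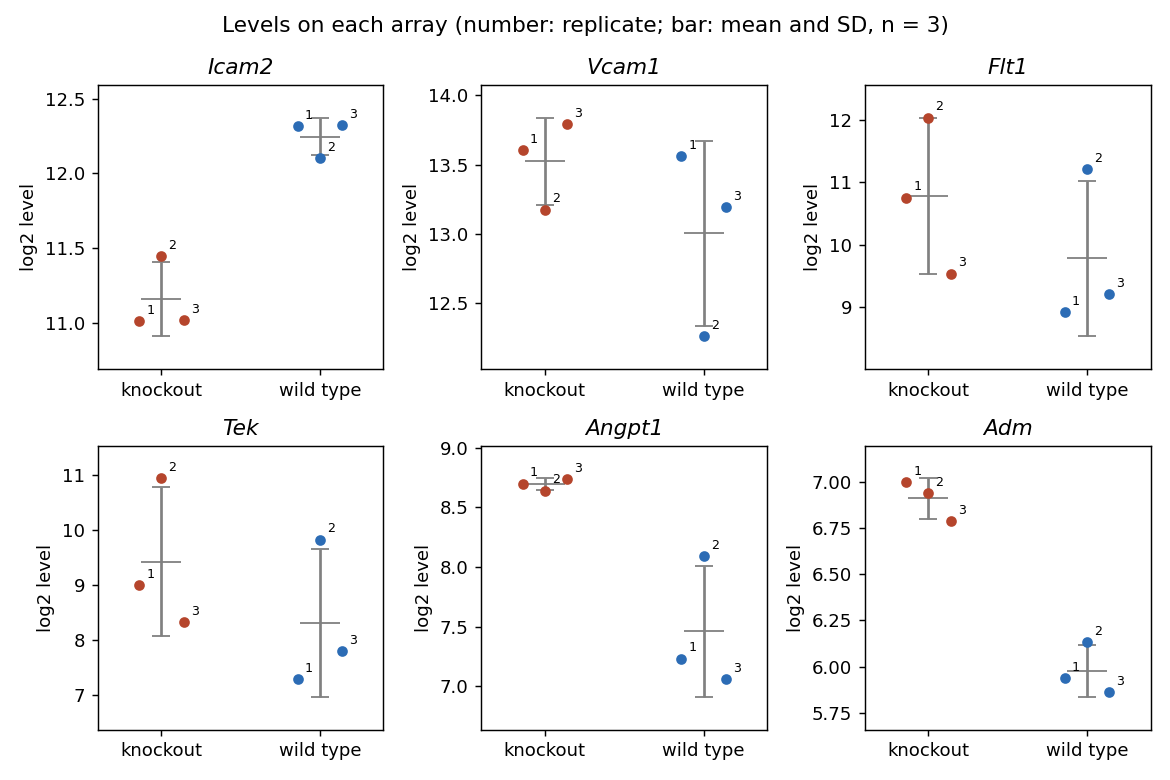
Log2 level (y axis) of 4 vessel genes and of the ligand genes Angpt1 and Adm on each knockout and wild-type array, with the replicate number beside each point and the mean ± SD (n = 3) in grey. Icam2, Angpt1 and Adm show no overlap between genotypes, whereas Flt1 and Tek are highest on replicate 2 of each genotype and Vcam1 is lowest on wild type 2.

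Genes of mural cells, the pericytes and smooth muscle around vessels, were 11 tested, of which 1 rose and none fell (3 higher and 0 lower at an unadjusted p under 0.05). Over all genes 6.09% were called higher, and 14.3% were higher at an unadjusted p under 0.05. The median difference of the 11 was 0.56. That median turned to −0.43 without knockout 2 and was 0.08 without replicate 2 of both genotypes, 0.26 without wild type 1, 0.85 without knockout 1, 1.00 without wild type 2 and 1.36 without knockout 3, and 0.91 with detection under 0.01 on all 6 arrays. With the block 3 rose (Myh11, Notch3 and Pdgfrb), where 12.4% of all genes were called higher. The call was Notch3, a Notch receptor of pericytes that early thymocytes carry too. It read 11.59, 11.32 and 11.70 in the knockout against 9.19, 9.62 and 9.42 in the wild type. The groups stood clearly apart, with a difference of 2.12 (SE 0.19, limma adjusted p = 0.00434), and the call was kept without any single array (limma adjusted p up to 0.0404). Acta2, smooth muscle actin, read 12.66, 15.81 and 11.07 against 12.17, 13.05 and 12.79. Knockout 2 was far above the others, and the difference was 0.51 (SE 1.14) with all 6 arrays and −0.81 without knockout 2. Myh11, the myosin of smooth muscle, read 10.42, 12.05 and 9.88 against 8.61, 9.13 and 8.82. Its groups did not overlap, and the difference of 1.93 (SE 0.55) had a limma adjusted p of 0.0770, and 0.0285 with the block. Myh11 passed without knockout 2 (1.30, limma adjusted p = 0.0395) and without replicate 2 of both genotypes.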

How the data were processed

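Thymus RNA of 3 Rag2/pfp knockout and 3 wild-type samples was measured on 1 array each. Per the file headers, the authors' table holds linear probe intensities not normalized between arrays. Beside each stands a deposited detection p-value. GenomeStudio 2011.1 is named in the submitters' processing notes. A second table of log2 values deposited by the authors matched quantile-normalized log2 signals, with a median of 7.48 in every column, and served as an alternative.

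Signals were processed with neqc (offset 16) and tested with lmFit and eBayes of limma 3.58.1 in R 4.3.3, with no block in the main test. The titles number the samples 1 to 3 in each genotype, with nothing said of a shared litter, batch or day. Deviations from the group means of same-numbered samples correlated at 0.104, 0.750 and 0.559 over tested probes. All exceed 0.1, so the blocked result is given where it changes a call. Over genes the first correlation was 0.0861, and knockout 3 correlated better with wild type 1 (0.727) than with its own number, so the pairing is weakly founded. The block's calls had been seen when probes were chosen as the basis of this check. Figures used Python 3.11.15, pandas 2.3.3 and matplotlib 3.10.9. The test ran over 14097 of 25697 probes with a detection p under 0.05 on at least 3 arrays, adjusted over all of them. Of several tested probes, the one with the highest mean stood for the gene. All 34 genes with a probe matched the RefSeq table by gene ID, and 0 symbols changed. The test was also run on simulated data with independent noise in each probe. Those data lack the shifts shared by many genes on these arrays, so that run cannot show how the test behaves under them.

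The members, lists and tests were chosen with earlier results of these data known. Values on every array were to be given for called members, members whose groups did not overlap and the brightest tested member of each role. Of the other lists, up to 4 called genes and the 2 brightest others were to be named. Other genes and their values on each array were added after the values were seen. Precision is limited by the 3 arrays per genotype. Alternatives covered background correction, normalization, filters, probes, variance model, replicate block and left-out arrays. A block by BeadChip was not run because no header names the chip.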

Additional observations from a re-analysis of the deposited data

How the results depend on the processing

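The count of called members was 1 in every alternative on the values, filters, probes and variance model. Leaving out 1 array gave 0 to 2 called members, 0 to 2 further endothelial genes, 0 to 3 ligand genes and 1 to 2 mural genes, while the calls over all genes ranged from 1.60% to 15.3%. Without replicate 2 of both genotypes the counts were 2, 6, 4 and 3 in the same order, with 29.2% of all genes called. The ligand count was 1 with no detection filter, where Angpt1 missed the threshold (limma adjusted p = 0.0650), and 1 with detection under 0.01 on all 6 arrays, where Adm was not tested. The mural count was 2 with median centring and 2 with the stricter detection, with Pdgfrb added. Apart from these changes in which genes were tested, the cause was not tested. Some differences changed sign when 1 array was left out. They ranged from −0.33 to 0.20 for Pecam1, −0.72 to 0.79 for Vwf, −0.38 to 0.44 for Selp, −0.54 to 0.28 for Gja4, −0.49 to 0.63 for Lyve1, −0.12 to 0.091 for Kdr, −0.37 to 0.60 for Nrp1, −0.10 to 1.66 for Cav1 and −0.81 to 1.56 for Acta2. Without replicate 2 of both genotypes Vwf was at −0.51, Selp at −0.17, Lyve1 at −0.18, Kdr at 0.0001756 and Acta2 at −0.62.

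With the replicate number as a block, limma called 5 members, 5 further endothelial, 4 ligand and 3 mural genes. That fit called 24.2% of all genes, beside 11.7% without the block. The calls gained were Aqp1, Emcn, Tek and Sox17 among the members, Aplnr, Cd34, Notch4, Rasip1 and Tal1, Bmp4 and Vegfc, and Myh11 and Pdgfrb, and no call of Icam2, Angpt1, Adm or Notch3 was lost. These gains rest on a pairing that the labels do not state. Tal1 also passed the detection filter through the knockout, so its call supports nothing.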

Other observations

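Cells of the blood and of the tissue around the thymus gave further values beside the vessel genes. Of 5 tested megakaryocyte and platelet genes, Gp5, a platelet surface glycoprotein, rose by 2.02 (SE 0.36, limma adjusted p = 0.0227), and none fell. Over all genes 6.09% were called higher and 5.57% lower. Gp5 was named after its values were seen. The median difference of the 5 was 0.24, with Pf4, a platelet chemokine gene, at 0.02 (SE 0.51) and Itga2b, a platelet integrin gene, at −0.42. Their mean level was 6.26, 7.41 and 6.34 in the knockout against 5.83, 6.94 and 5.74 in the wild type, highest on replicate 2 of each genotype. Of 7 tested macrophage genes none was called (0 higher and 1 lower at an unadjusted p under 0.05), and their mean level was 8.90 to 8.99 on the knockout arrays and 9.27 to 9.44 on the wild-type arrays. Of 5 tested mesothelial genes 1 was called lower, Krt19 (difference −1.53, SE 0.37, limma adjusted p = 0.0499), which was above background on 2 of 3 knockout arrays. The 5 differences were above 0 for 2 genes, Upk3b (0.62) and Wt1 (0.33), and below 0 for 3. Their mean level was 7.60, 6.97 and 6.68 in the knockout against 7.04, 8.54 and 6.73 in the wild type. In a list of parathyroid, thyroid and airway genes, with 3 tested, the mean level ran against the heart and fat lists. Pth and Bpifa1 had this course. Tg did not, at 4.85, 4.69 and 4.81 in the knockout against 6.48, 5.98 and 5.77 in the wild type. The 1 call among the 3, Tg lower, was detected on no knockout array and passed the filter through the wild type alone. The mean level of the 3 was 5.67, 4.70 and 8.55 on the knockout arrays and 8.31, 5.35 and 8.94 on the wild-type arrays.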
